A study of Hordeum vulgare with 2 samples.

Results

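This account covers the cysteine peptides of ascorbate-recycling enzymes, a peroxiredoxin, glutathione-linked enzymes and glyoxalases in germinated barley embryos. Members were taken by protein name: dehydroascorbate reductase, ascorbate peroxidase, peroxiredoxin, glutathione, IN2-1, superoxide dismutase, catalase, thioredoxin, glutaredoxin, disulfide isomerase or glyoxalase in the name in either run. The entry Os08g0151800, whose peptide resembles one of monodehydroascorbate reductase, was added. This gave 16 of the 210 peptide sequences of the series, from 11 protein entries. Superoxide dismutase, catalase, thioredoxin and disulfide isomerase gave 0 peptides.

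The material was protein extract of embryos dissected from seeds of the malting barley cultivar Barke after 48 h of germination, with free thiols alkylated by iodoacetamide (IAM) during extraction. The extract was divided and incubated for 1 h in the presence or absence of thioredoxin (Trx), a small redox protein that opens disulfides of its partners. In the blocked run, a second dose of 10 mM IAM followed, which kept thiols freed by Trx from being tagged, and in the control run this second IAM step was omitted. In both runs the remaining cysteines were reduced chemically and tagged with isotope-coded affinity tags (ICAT), with the light tag for the Trx-treated portion and the heavy tag for the untreated one, and equal amounts were mixed. A thiol freed by Trx and then blocked thus raises the heavy/light ratio of its peptide above 1. One label of the control sample calls it untreated, whereas its title and description give the same incubations as the blocked run, and these were followed. Each run is 1 sample, so there is no replicate error and no test between the runs. Errors given as ± are the authors' SD of a peptide's ratio within a run, and how many ratios lie behind each is unknown.

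Plants remove hydrogen peroxide in part with ascorbate. Ascorbate peroxidase uses ascorbate to reduce the peroxide, and monodehydroascorbate reductase and dehydroascorbate reductase return the oxidised forms to ascorbate, the latter at the expense of glutathione. Peroxiredoxins reduce peroxides through a cysteine of their own, glutaredoxins exchange disulfides with glutathione, glutathione S-transferases join glutathione to other molecules, and glyoxalase I uses glutathione to remove methylglyoxal, a by-product of glycolysis.

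The cysteine sites that the results turn on are given below as deposited peptides, in capitals from the amino to the carboxyl end. For dehydroascorbate reductase only the residues around the cysteine of its 17-residue peptide are given, 3 on each side.
Dehydroascorbate reductase, around the cysteine: LGDCPFS
IN2-1: LYVAYHCPYAQR
PER1, 11 residues: LSFLYPSCTGR
PER1, 13 residues: LLGISCDDVQSHK
Monodehydroascorbate reductase: LPGFHVCVGSGGER
Os08g0151800: LPGFHTCVGSGGQR
Glutaredoxin: HIGGCDDTIALNK
Glyoxalase family protein, 9 residues: LAYIVCYVK
The first pair shares a cysteine followed by proline and an aromatic residue. This is the stretch that holds the catalytic cysteine in plant dehydroascorbate reductases and in lambda-class glutathione transferases, the family to which IN2-1 proteins are related. The glutaredoxin peptide holds GGCDDT, a stretch near the glutathione-binding site of glutaredoxins, and not the CPYC-type active site.

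Of the 16 peptides, 15 were measured with the block and 9 in the control run, with 8 in both. Limits were set at the mean ± 2 SD of the log2 ratio over all 93 control peptides, which is 0.822 to 1.24 as a ratio. With the block, 7 of the 15 peptides lay above the upper limit and 8 within the limits, against 50.8% of all 199 peptides of that run above it. The members' median ratio was 1.23, against 1.249 over all 199 peptides. Both the share above the limit and the median were thus near those of the whole run, and the members' ratios ran almost from its top to its bottom, from 2.64 (rank 1 of 199) to 0.932 (rank 196). In the control run 1 of 9 members lay above the limit, dehydroascorbate reductase. It was 1 of the 2 peptides above it among all 93 of that run (2.15%). The control peptides set these limits themselves, so their count above is small by construction.

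Fewer peptides passed stricter limits, among these enzymes as in the whole run. With 3 SD, 4 of the 15 members lay above the limit, against 41.7% of all peptides with the block (0 of 9, and 1.08% of all, in the control run). Above the highest control peptide lay 4 members and 38.7% of all, and above a fixed ratio of 1.5 lay 3 members and 32.7% of all. The 3 were dehydroascorbate reductase, the 11-residue PER1 peptide and IN2-1. After division of all blocked ratios by 1.23, the median fold difference of shared peptides outside the group, 3 members and 31.2% of all lay above the reported limit. Somewhat lower limits, from the control median and scaled median absolute deviations or from control peptides outside the group, each left 8 members above, against 53.3% and 52.8% of all, and with the first of these 2 control members, against 3.23% of all, lay above.

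**Figure D1:**
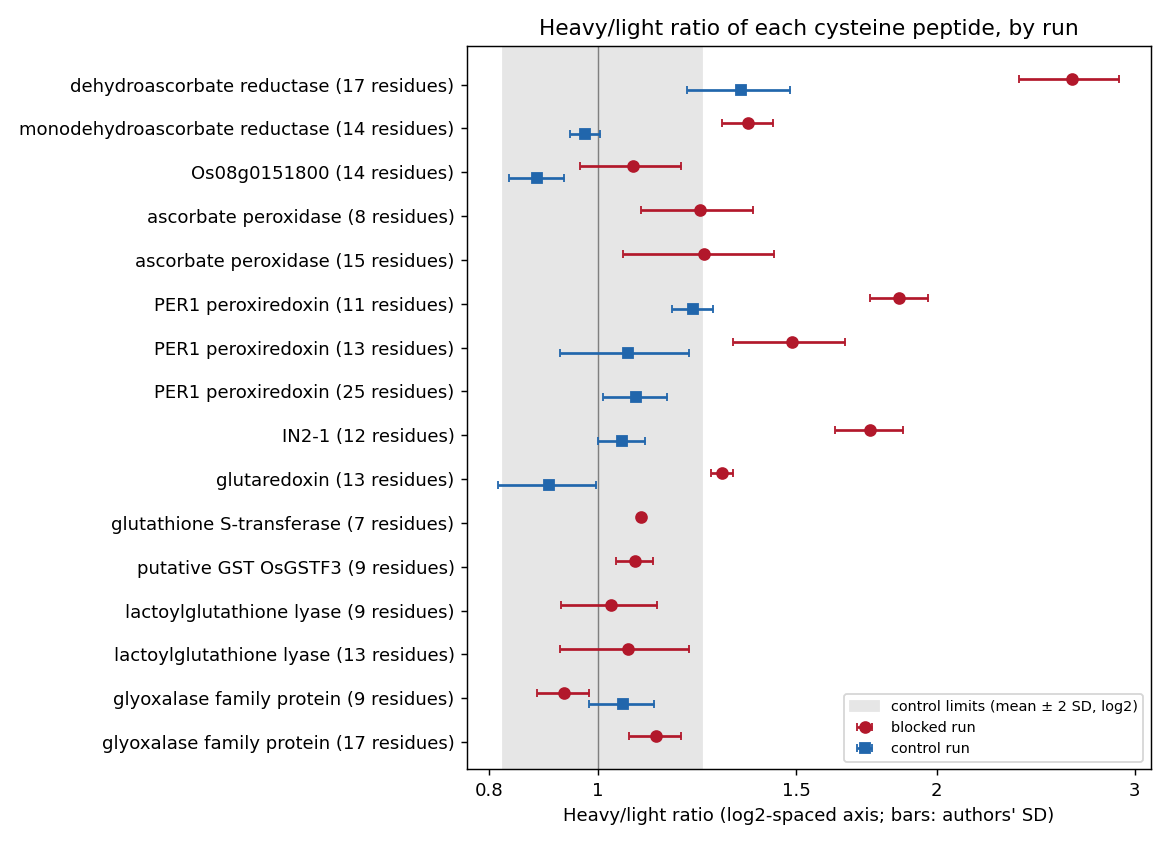
Heavy/light ratio (log2-spaced horizontal axis) of each of the 16 cysteine peptides in the blocked run (red circles) and the control run (blue squares), with the authors' SD as bars and the control limits of 0.822 to 1.24 in grey. Dehydroascorbate reductase, both PER1 peptides of the blocked run and IN2-1 lie farthest to the right of the grey band, and all 4 glyoxalase peptides of the blocked run lie inside it. No bar is drawn for the glutathione S-transferase peptide, whose SD is listed as 0.

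Dehydroascorbate reductase (wheat entry gi|28192421) had 2.64 ± 0.27 with the block and 1.34 ± 0.14 without it. It had the highest ratio of the 199 peptides with the block and the second highest of 93 in the control run, so part of its excess was present without the block. The apparent share of light label lost, 100 × (1 − light/heavy), was 62.1% with the block and 25.4% without it. The same peptide was 1.97-fold higher with the block (log2 difference 0.98 ± 0.21, the error carried over from both SDs), the highest of the 82 peptides measured in both runs. Its SD ranges, 2.37 to 2.91 and 1.20 to 1.48, were apart. The peptide was matched through its heavy form in both runs, with Mascot ion scores, which grade the match of a spectrum to a sequence, of 65 and 57.

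Of peptides outside the group, the nearest to dehydroascorbate reductase by their log2 ratios in the 2 runs were the 14-residue peptide of cyclophilin A-2, a peptidyl-prolyl isomerase (1.904 ± 0.19 and 1.19 ± 0.09), one of S-adenosylmethionine synthetase 1, which makes the methyl donor of the cell (1.76 ± 0.09 and 1.15 ± 0.08), and one of embryo globulin, a storage protein (1.77 and 1.06, each with an SD listed as 0). Their distances on the log2 scale were 0.50, 0.63 and 0.67; the other shared peptides outside the group lay farther away.

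The other ascorbate enzymes had lower ratios. Monodehydroascorbate reductase (entry of cucumber) had 1.36 ± 0.07 with the block and 0.974 ± 0.03 without it. This was a 1.395-fold difference (rank 30 of 82) with SD ranges apart. The peptide was matched through its light form with the block (score 36) and its heavy form without it (score 24). Os08g0151800 had 1.07 ± 0.11 and 0.883 ± 0.05, a 1.22-fold difference (rank 46 of 82) with SD ranges apart at 1 SD but overlapping at 2 SD. These are corresponding peptides of 14 residues that share 12 and differ by V6T and E13Q, written from the monodehydroascorbate reductase peptide to the Os08g0151800 peptide and counted from the amino end. The cysteine is at position 7 in both, next to the first of these differences.

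With the block the monodehydroascorbate reductase peptide had 1.27 times the ratio of the Os08g0151800 peptide, and the first lay above the limit and the second within. Their SD ranges, 1.29 to 1.43 and 0.964 to 1.18, were apart. In the control run the first was also higher, by 1.103 times, again with ranges apart (0.944 to 1.00 and 0.833 to 0.933). With ranges of 2 SD the peptides overlapped in both runs. Set against their own control values, the gap between the peptides was 1.15-fold. Their log2 differences, 0.48 ± 0.09 and 0.28 ± 0.17, had overlapping error ranges. The control match of the Os08g0151800 peptide carried a mass error of 18.5 ppm, against a median absolute error of 7.66 ppm over the control run, and the part of this in its ratio was not tested.

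Ascorbate peroxidase of barley gave 2 peptides with the block and 0 without it. CYPT, the start of its 15-residue peptide, holds the cysteine of the one with 1.242 ± 0.19, and NCAPLMLR had 1.23 ± 0.14. The upper limit, 1.236, lay between these ratios, which differed by 1.01-fold with widely overlapping SD ranges. The count of one peptide above and one within is therefore no difference between the sites. These were also the members nearest to the limit on either side. NCAPLMLR was matched with a score of 20, the lowest the study accepted.

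PER1 (REHY_HORVU) is the 1-Cys peroxiredoxin of barley embryo and aleurone. Its 11-residue peptide had 1.85 ± 0.11 with the block and 1.21 ± 0.05 without it, and its 13-residue peptide 1.49 ± 0.17 and 1.06 ± 0.14. Both were higher with the block, by 1.53-fold (log2 difference 0.61 ± 0.10) and 1.399-fold (0.48 ± 0.25), with SD ranges apart. These differences ranked 18 and 28 of 82. Of all 82 shared peptides 98.8% were higher with the block, by a median of 1.24-fold. SD ranges were apart for 62.3% of the 69 with neither SD listed as 0. At 2 SD the ranges of the 13-residue peptide overlapped. Another peptide, of 25 residues and with the cysteine in PGECVVI, was measured in the control run alone, at 1.08 ± 0.07, and its match carried a mass error of 54.2 ppm, whose part in the ratio was not tested. None of the 3 peptides holds the pattern P-x-x-x-T-x-x-C, or the same with S in place of T, around which peroxiredoxins carry the cysteine that reacts with peroxide (x stands for any residue). The same patterns were in 0 of the 199 and 0 of the 93 peptides of the runs.

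With the block the PER1 peptides differed by 1.25-fold. Their SD ranges (1.74 to 1.96 and 1.32 to 1.66) were apart at 1 SD but overlapped at 2 SD. In the control run the 11-residue peptide was already the higher of them, by 1.14-fold over the 13-residue peptide, with overlapping ranges. It was the third highest of the 93 control peptides. Set against their own control values, the log2 differences of these peptides, 0.61 ± 0.10 and 0.48 ± 0.25, did not differ beyond their errors. Over the 27 entries with at least 2 peptides in the blocked run, the median gap between the lowest and the highest peptide was 1.16-fold.

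Of the 4 glutathione transferase and glutaredoxin peptides of the blocked run, IN2-1 among them, 2 lay above the limit. This is near the 50.8% of all 199 peptides. IN2-1 (entry of rice), named after a maize gene induced by herbicide safeners, had 1.745 ± 0.12 with the block and 1.05 ± 0.05 without it. This 1.66-fold difference (log2 0.73 ± 0.12) ranked 6 of 82, with SD ranges apart. Unlike dehydroascorbate reductase and the 11-residue PER1 peptide, IN2-1 ranked only 32 of 93 in the control run. Its matches scored 49 with the block and 44 without it. The control match carried a mass error of 14.9 ppm, against a median absolute error of 7.66 ppm over that run. The part of this in the ratio was not tested. Glutaredoxin (entry of wheat) had 1.289 ± 0.03 and 0.905 ± 0.09, a 1.42-fold difference (rank 25 of 82) with SD ranges apart at 1 SD and at 2 SD. Its control value was low in its run (rank 80 of 93). The peptide was matched through its heavy form with the block (score 47) and its light form without it (score 31).

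Both entries named glutathione S-transferase had low ratios. VYDCGTR of a barley entry had 1.09 with an SD listed as 0, and YICDQYSDR of putative OsGSTF3, a phi-class enzyme by its name, had 1.08 ± 0.04. Neither had a control value. The match of VYDCGTR carried a mass error of 20.1 ppm, against a median absolute error of 4.49 ppm over the blocked run. The part of this in its ratio was not tested. Phi-class enzymes are known to use a serine in catalysis where the dehydroascorbate reductase and lambda classes use a cysteine. Within this superfamily, the peptides with C-P-F or C-P-Y had 2.64 and 1.745, and those named glutathione S-transferase 1.09 and 1.08. The name of the barley entry gives no class, and whether these peptides cover matching sites is unknown. The part of the catalytic residue in these ratios was not tested. Over the whole blocked run 3 peptides held C-P-F or C-P-Y, the third being CPFTGTVAIR of ribosomal protein S11 at 1.48 ± 0.12. A cysteine followed by proline was in 8 peptides of the run, 4 above the limit and 4 within. The pattern C-x-x-C was in 0 members.

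All 4 glyoxalase peptides of the blocked run stayed within the limits, as did 98 of all 199 peptides of that run. These 4 are too few to set the glyoxalases apart. Lactoylglutathione lyase (glyoxalase I, entry of rice) had 1.03 ± 0.10 for CYTECFGMK, which holds 2 cysteines, and 1.06 ± 0.14 for GPTPEPLCQVMLR, with 0 of these measured in the control run. The glyoxalase family protein TC132259 had 1.125 ± 0.06 for its 17-residue peptide, with the cysteine in VEICFDY, and 0.932 ± 0.05 for LAYIVCYVK. These cysteines of 1 protein differed by 1.21-fold, although both lay inside the control limits. Their SD ranges (1.06 to 1.19 and 0.882 to 0.982) were apart at 1 SD but overlapped at 2 SD. The 17-residue peptide had no control value. The median gap over the 27 entries with at least 2 peptides in the blocked run was 1.16-fold.

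LAYIVCYVK had a control ratio of 1.05 ± 0.07 and was thus lower with the block (log2 difference -0.17 ± 0.12). It was the only one of the 82 shared peptides that was lower, since 98.8% were higher. Its SD ranges met at 0.982, so at 1 SD they were not apart. The match scored 49 with the block and 50 without it, above the run medians of 41 and 39, with mass errors of 0.309 and -1.19 ppm.

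**Figure D2:**
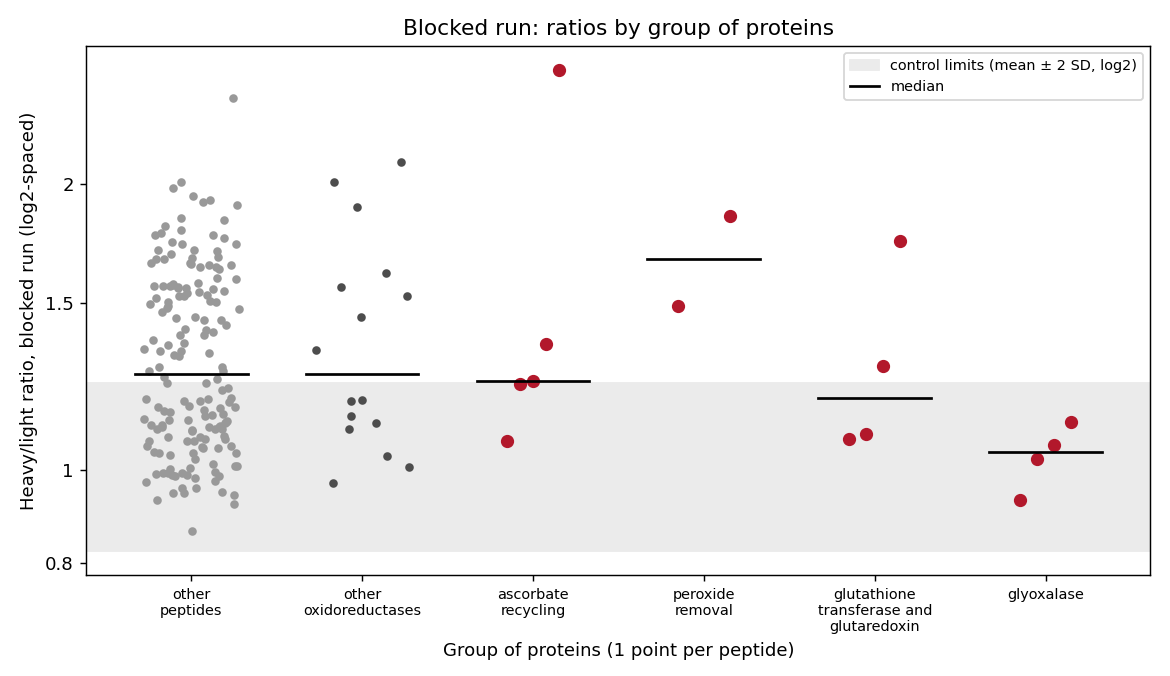
Heavy/light ratio in the blocked run (log2-spaced vertical axis) of each peptide, by group of proteins, with group medians as black lines and the control limits in grey. The 4 glyoxalase peptides lie between 0.932 and 1.125, the PER1 peptides at 1.49 and 1.85, and the ascorbate group reaches from 1.07 to 2.64.

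Set against themselves, 7 of the 8 members in both runs were higher with the block, against 98.8% of all 82 shared peptides. The SD ranges were apart for these 7, against 62.3% of the 69 shared peptides for which neither SD is listed as 0. With ranges of 2 SD, 5 of the 8 were apart, against 37.7% of the 69. Their median difference was 1.41-fold, against 1.24-fold over all 82 shared peptides. In order of this difference came dehydroascorbate reductase, IN2-1, the 11-residue PER1 peptide, glutaredoxin, the 13-residue PER1 peptide, monodehydroascorbate reductase, Os08g0151800 and LAYIVCYVK. Glutaredoxin, the 13-residue PER1 peptide and monodehydroascorbate reductase lay between 1.395-fold and 1.42-fold, and these neighbours did not differ beyond their errors.

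**Figure D3:**
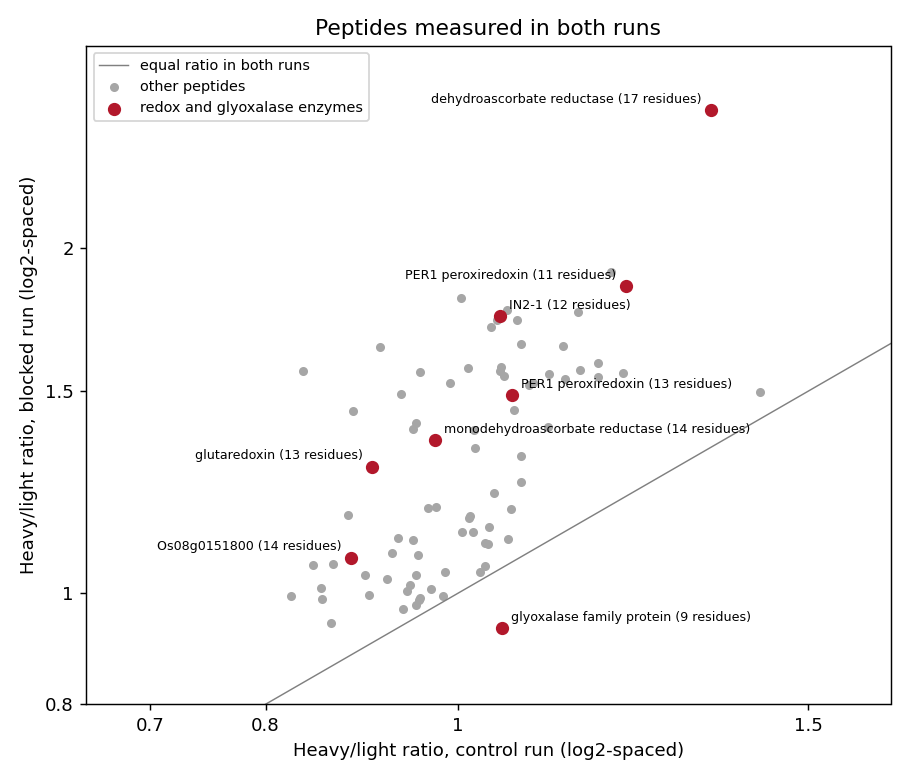
Heavy/light ratio in the blocked run against that in the control run (both axes log2-spaced) for the 82 peptides in both runs, with the 8 redox and glyoxalase peptides in red and a line of equal ratios. The glyoxalase peptide alone lies below the line, and dehydroascorbate reductase stands apart at the upper right with 2.64 and 1.34.

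Most members without a control value had low ratios. Of the 8 members with one, 6 lay above the limit (median ratio 1.42), and of the 7 without one, 1 did (median 1.09). Over all peptides of the blocked run the shares were alike, 42 of 82 with a control value and 59 of 117 without. The median difference over members in both runs leaves out the ascorbate peroxidase peptides, both peptides named glutathione S-transferase, those of lactoylglutathione lyase and the 17-residue peptide of the glyoxalase family protein.

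Other oxidoreductases, taken by the words dehydrogenase, reductase, oxidase, oxidoreductase or peroxidase in the name, had a median ratio of 1.26 in the blocked run, where 8 of their 16 peptides exceeded the limit. They reached from alcohol dehydrogenase 1, which makes ethanol when oxygen is short, at 2.11 ± 0.14 to cytosolic malate dehydrogenase at 0.969 ± 0.09. In the control run 0 of 6 lay above. The 6 measured in both runs had a median difference of 1.13-fold, against 1.24-fold over all 82 shared peptides. SD ranges were apart for 1 of the 6, against 62.3% of the 69 shared peptides for which neither SD is listed as 0. Only 1 of the 6, a glucose and ribitol dehydrogenase peptide at 1.56 ± 0.09, lay above the limit with the block. This median thus leaves out most of the high ratios among the 16. The difference between these and the redox and glyoxalase enzymes was not tested, since each run is 1 sample.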

How the data were processed

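The deposited tables list 199 (blocked run) and 93 (control run) ICAT peptides of barley embryo protein, each sequence once per run. Per the series' design text, Mascot matched the spectra to plant sequences of Swiss-Prot 54.6, a non-redundant protein collection and barley gene index 9.0, and MSQuant 1.4.3a12 gave the ratios. The deposited heavy/light ratio is the authors' average of ratios per peptide, with an SD in the same unit, and no centring is stated. The deposited score is the Mascot score of the match, and deposited charge, mass and mass error are other values that describe it. Members, protein lists, limits and alternatives were chosen with earlier results of these data known. Runs were joined on the peptide sequence and compared on the log2 scale (Python 3.11.15, pandas 2.3.3). All members are named, and of other peptides the 3 nearest to the shared member with the highest blocked ratio and the extremes of the other oxidoreductases. The comparison of CPFTGTVAIR was chosen after its value was seen. Errors of differences combine both SDs as relative errors. The limit and counting steps were tested on simulated data. Lactoylglutathione lyase, taken by the word glutathione, was placed with the glyoxalases. Of the 11 entries, 0 matched the RefSeq gene table of barley, so no genome positions are given. Patterns were searched in the deposited peptides, on the amino acid letters. The depth of sampling is unknown, and peptides are not replicates, so no p-value was computed.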

Additional observations from a re-analysis of the deposited data

How the results depend on the processing

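For the main results, 26 alternatives gave a count no more than 1.5 times apart from the reported one, or a median closer to it than the SD over members, and 8 did not, all of them counts above a limit. The 7 members above the limit became 4 with limits of 3 SD, 4 above the highest control peptide, 3 above a fixed ratio of 1.5 and 3 after division of all blocked ratios by 1.23, the median fold difference of the shared peptides outside the group. The 1 control member above the limit became 0 under each of the first 3 limits and 2 with a median and scaled median absolute deviations. Higher limits leave fewer peptides by construction, also over the whole run (41.7% of all peptides with 3 SD, 38.7% above the highest control peptide and 32.7% above 1.5). Dehydroascorbate reductase, IN2-1 and the 11-residue PER1 peptide lay above under each of the limits. Both ascorbate peroxidase peptides lay above with limits from control peptides outside the group (8 of 15). The division left 31.2% of all peptides above. It also took the members' median ratio from 1.23 to 1.00 and their median log2 difference from 0.50 to 0.20. These moves were smaller than the SD over members, which is a spread between peptides and not an error of the median. Among single peptides (a choice made after seeing the data) the division shifts each log2 difference down by 0.29, which turned that of Os08g0151800 from 0.28 to -0.012. It left monodehydroascorbate reductase at 0.19, the 13-residue PER1 peptide at 0.19, glutaredoxin at 0.22, the 11-residue PER1 peptide at 0.32, IN2-1 at 0.44, dehydroascorbate reductase at 0.68 and LAYIVCYVK at -0.47. Whether unequal mixing of the arms plays a part was not tested. No paired analysis was possible because each group has 1 sample, and for the same reason no replicate could be left out. The number of spectra per ratio is unknown.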

Other observations

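The form of the label through which a peptide was matched went with its ratio in the blocked run. Of 119 peptides matched through the heavy form 74 lay above the limit (62.2%), and of 80 matched through the light form 27 did (33.8%). The median ratios were 1.39 and 1.15 with the block, and 1.02 and 0.985 in the control run. Among the redox and glyoxalase enzymes, 3 of 7 heavy-form and 4 of 8 light-form peptides lay above, with medians of 1.07 and 1.30. These counts are too small to give an order, and 3 of the heavy-form peptides were glyoxalase peptides with low ratios. Dehydroascorbate reductase was matched through the heavy form in both runs, and IN2-1 and both PER1 peptides of the blocked run through the light form. Glutaredoxin was matched through the heavy form with the block and the light form without it, and monodehydroascorbate reductase the other way round. The part of the matched form in the ratios was not tested.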
